A study of Drosophila melanogaster with 3 samples.

Results

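The genes described here encode structural proteins of the cuticle of Drosophila melanogaster, and the question put to each was whether a tagged Pif1B was found on the chromatin at it in pupae. A gene was a member when it was protein-coding and its symbol in the Ensembl annotation of the BDGP6 assembly began with Cpr and a digit, Lcp, Ccp84A or Twdl, or was Acp1, Acp65Aa, Edg78E, Edg84A or Edg91. The rule found 122 members, of 13945 genes for proteins that the annotation places on the arms. Because the rule goes by symbol, cuticle protein genes under other names, such as Pcp, resilin and the Tweedle gene Tb, were not members, and Tb fell among the neighbouring genes.

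All libraries came from 1 group, a transgenic fly line that stably carries Pif1B fused at its C terminus to green fluorescent protein (Pif1B-eGFP). Whole pupae of both sexes were pooled, at an age that the labels give as unknown, and chromatin was precipitated with an antibody against the tag and sequenced. The 3 biological replicates are separate biosamples of the same line, and no other genotype, tag, stage or untagged line was analysed here. Each replicate has a relaxed list of regions (29999, 29999 and 30000), the pooled replicates have a relaxed list of 29999 regions, and a list of 6410 regions passed the authors' threshold on the irreproducible discovery rate (IDR), a measure of how reproducibly regions rank between replicates. The signal value of a region is the authors' peak caller's own and was used only to rank regions within a list. Sequencing depth is unknown, because only lists of regions were analysed. In whole pupae, a region that is weak in every cell and a region that is strong in few cells cannot be told apart.

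The insect cuticle is a layered matrix of chitin fibres and proteins that the epidermis secretes anew before each moult. Cpr proteins carry the Rebers and Riddiford consensus, a chitin-binding domain, and the Lcp, Ccp84A, Edg and Acp proteins are larval, pupal or adult cuticle proteins first named by stage, position or response to ecdysone. Tweedle (Twdl) proteins form a separate family of cuticle proteins, first known from a mutation that shortens and widens the body. Pulses of ecdysone and the nuclear receptors and other factors that follow them switch sets of these genes on and off in the epidermis through the prepupal and pupal stages, and many of the genes lie side by side in tandem clusters.

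To show what DNA lies under the strongest regions, their sequences are given as the 101 bases centred on each summit on the plus strand of dm6 (sequence from RefSeq). The 6 IDR regions at members on the arms 2L and 3L are given in order of falling signal, followed by the IDR region inside the Lcp65A cluster that lies at no member. Capitals mark the word GTTATCATTCGA or its reverse complement, and the searched motif AAAAAA, which reads TTTTTT on the other strand.
Cpr31A, chr2L:10057392-10057492: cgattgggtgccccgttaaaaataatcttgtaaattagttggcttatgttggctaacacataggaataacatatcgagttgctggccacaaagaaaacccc
Cpr72Eb, chr3L:16364312-16364412: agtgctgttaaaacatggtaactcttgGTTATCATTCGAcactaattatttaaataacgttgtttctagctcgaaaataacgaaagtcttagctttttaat
Cpr72Ea, chr3L:16361372-16361472: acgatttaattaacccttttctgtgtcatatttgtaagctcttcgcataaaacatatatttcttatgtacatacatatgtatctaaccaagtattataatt
Cpr62Ba, chr3L:1829723-1829823: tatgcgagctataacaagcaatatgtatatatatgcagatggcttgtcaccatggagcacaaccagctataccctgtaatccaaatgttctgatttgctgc
Cpr73D, chr3L:16941401-16941501: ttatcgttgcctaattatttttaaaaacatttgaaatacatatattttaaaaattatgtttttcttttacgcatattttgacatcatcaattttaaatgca
Cpr73D, chr3L:16956473-16956573: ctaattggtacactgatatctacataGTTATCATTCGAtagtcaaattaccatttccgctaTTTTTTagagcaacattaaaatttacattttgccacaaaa
Lcp65A cluster, chr3L:6155267-6155367: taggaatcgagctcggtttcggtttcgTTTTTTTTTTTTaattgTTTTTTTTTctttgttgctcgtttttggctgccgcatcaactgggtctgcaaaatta

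These windows were rich in A and T. The median GC content over the 8 IDR regions at members was 28.7%, against 33.7% over all 6410 IDR regions, 37.6% over all pooled regions and 39.6% over the 102 pooled regions at members. The lowest was 18.8%, in an intron of Cpr73D, and the windows at Cpr31A and Cpr62Ba had 40.6% each. None of the 8 held TATAAA on either strand, against 20.6% of all IDR windows. GAGAG, in 16.5% of all IDR windows, was in none of the 8, and neither were CACACA (8.21% of all) and the nuclear receptor word TGACCT (2.01%). The rarer words TATCGATA (0.468%), CACGTG (0.64%) and CAAGGTCA (0.109%, whose reverse complement holds TGACCT) were absent too. AAAAAA was in 1 of 8, against 30.1% of all IDR windows. With 8 windows, an absent word says little. The 12-base word GTTATCATTCGA, found by comparing the 15 pairs of windows printed at members and so chosen after the sequences were seen, was in the windows of Cpr72Eb and Cpr73D and in no other of the 6410 IDR windows or of the 29998 pooled windows read. It has 15 copies on the chromosome arms, and the next longest word shared by any of those pairs had 11 bases.

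The promoters of the members were searched for the same words. Windows were the 250 bases before and the first 50 bases after each gene's start. TATAAA, the core of the TATA box, was in 92 of 122 member promoters (75.4%), against 45.8% of all 13945 promoters of the same length. TATCGATA, the DNA replication-related element typical of housekeeping promoters in the fly, was in 1 member promoter (0.82%), against 9.36% of all. GAGAG was in 38 (31.1%), against 29.7% of all, AAAAAA in 54 (44.3%), against 50.4%, CACACA in 27 (22.1%), against 19.2%, and CACGTG in 3 (2.46%), against 4.2%. TGACCT, the core word of nuclear receptor sites, was in 8 (6.56%), against 5.88%. CAAGGTCA, the extended word that the fly nuclear receptor FTZ-F1 binds, was in 1 member promoter, that of Edg84A, against 0.495% of all promoters.

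Of these promoters, 2 are printed for the 250 bases before the start and the first 30 after it, on the strand of the gene. Edg78E is a member with no region in any list, and Edg84A, shown for its FTZ-F1 word, was picked after its values were seen. Both are pupal cuticle genes first identified by their dependence on ecdysone, and Edg84A is a known target of FTZ-F1 in the fly. Capitals mark the searched words on either strand.
Edg78E, chr3L:21297774-21298053, minus strand: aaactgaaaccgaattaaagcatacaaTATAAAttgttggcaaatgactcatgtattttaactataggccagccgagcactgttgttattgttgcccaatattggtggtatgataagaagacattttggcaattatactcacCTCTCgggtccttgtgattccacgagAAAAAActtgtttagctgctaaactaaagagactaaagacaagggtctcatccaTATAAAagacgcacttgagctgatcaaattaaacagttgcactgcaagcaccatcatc
Edg84A, chr3R:6684195-6684474, plus strand: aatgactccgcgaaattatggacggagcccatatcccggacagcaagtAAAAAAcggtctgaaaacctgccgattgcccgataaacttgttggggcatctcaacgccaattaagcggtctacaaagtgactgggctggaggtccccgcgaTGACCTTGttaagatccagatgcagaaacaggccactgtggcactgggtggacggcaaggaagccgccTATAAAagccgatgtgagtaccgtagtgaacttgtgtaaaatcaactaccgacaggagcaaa

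Few cuticle protein genes had an IDR region. A gene was counted when the summit of a region lay in the gene or within 2 kb of it. This held for 8 of 122 members, or 6.56% (95% Clopper-Pearson interval 2.87 to 12.5), against 99 of 392 neighbouring genes, or 25.3% (21.0 to 29.9), and 29.8% of all protein-coding genes. Neighbouring genes were the non-family protein-coding genes with any base within 20 kb of a member, so they lie in the members' surroundings, although a region in a long neighbour can be farther away. The intervals cover counting error only, and genes that share a region are not independent.

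At the relaxed level the members were closer to the other genes. A pooled relaxed region lay at 57 members (46.7%), against 224 neighbouring genes (57.1%) and 54.7% of all genes. Leaving out replicate 3, with support required from the whole lists of both others, brought the members' count to 36 (29.5%), and leaving out replicate 1 or 2 to 40 or 38. Neighbours and all genes were not counted in that way, so these counts cannot be set against the shares above. Of the genes that had any pooled region, 14.0% of members also had an IDR region, against 44.2% of neighbouring genes and 54.4% of all genes. The strongest pooled region at a gene had a median signal of 45.3 over the 57 members, 74.1 over the 224 neighbours and 94.0 over the 7631 genes with such a region.

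Cuticle protein genes are short, and a short gene has a smaller window. Their median length was 966 bp, against 2185 bp for the neighbours and 2166 bp for all genes. Among genes up to 2 kb long, 5 of 103 members (4.85%) had an IDR region, against 28 of 179 neighbours (15.6%) and 18.3% of all 6520 genes of that length. When only the 2 kb around annotated starts were counted, whatever the gene's length, the counts were 6 members (4.92%), against 74 neighbours (18.9%) and 24.0% of all genes. A gene with more starts has more such windows. A single start was annotated for 91.0% of members, against 76.5% of neighbours and 73.5% of all genes.

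The difference was of similar size in each replicate. Among the 6410 strongest regions of replicates 1, 2 and 3, a summit lay at 11, 13 and 9 members, or 9.02%, 10.7% and 7.38%, against 106, 112 and 104 neighbours, or 27.0%, 28.6% and 26.5%. The same lists reached 31.0%, 34.1% and 30.6% of all genes. Every replicate thus placed the members lowest, and the ranges of members and neighbours did not overlap. The means were 9.02% ± 1.64 for members, 27.4% ± 1.06 for neighbours and 31.9% ± 1.92 for all genes (SD, n = 3). The difference between members and neighbours was -18.4 ± 0.685 percentage points, with a two-sided exact sign-flip permutation p of 0.25, the smallest that 3 replicates allow, so this design cannot pass 0.05. Over the whole relaxed lists the shares were 44.3%, 54.1% and 51.6% of members, against 59.9%, 63.0% and 59.7% of neighbours, a difference of -10.9 ± 4.18 points with the same exact p of 0.25.

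**Figure D1:**
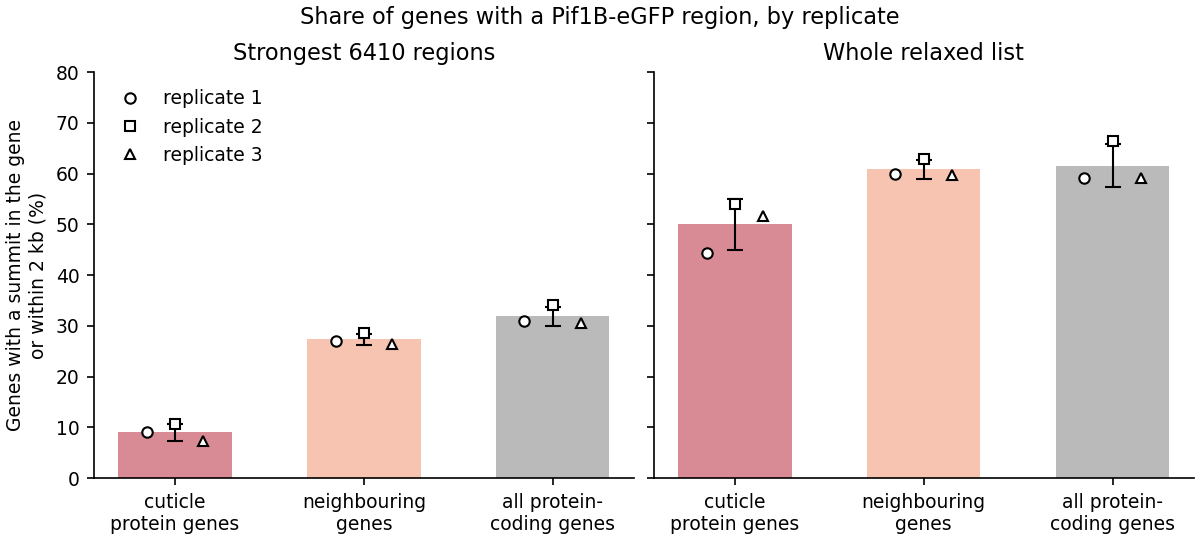
Share of genes (percent) with a region summit in the gene or within 2 kb, for cuticle protein genes, neighbouring genes and all protein-coding genes; points are the 3 replicates, bars their mean and error bars the SD. With the strongest regions (left panel) the members sit between 7.38% and 10.7% and the neighbours between 26.5% and 28.6%, while with the whole lists (right panel) the gap is smaller.

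By name group, the 8 members with an IDR region were all Cpr genes, of which there are 70. No IDR region lay at any of the 25 Twdl, 15 Lcp, 7 Ccp84A, 3 Edg or 2 Acp genes. Most of these groups are small, and the difference between groups was not tested. Pooled relaxed regions lay at 39 Cpr, 4 Twdl, 7 Lcp, 4 Ccp84A, 2 Edg genes and 1 Acp gene. The median length was 1088 bp for the Twdl genes and 1094 bp for the Cpr genes. The longest Cpr gene, Cpr73D, has 18590 bp and the longest Twdl gene, TwdlE, 2883 bp. The part of length in the counts was not tested.

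**Figure D2:**
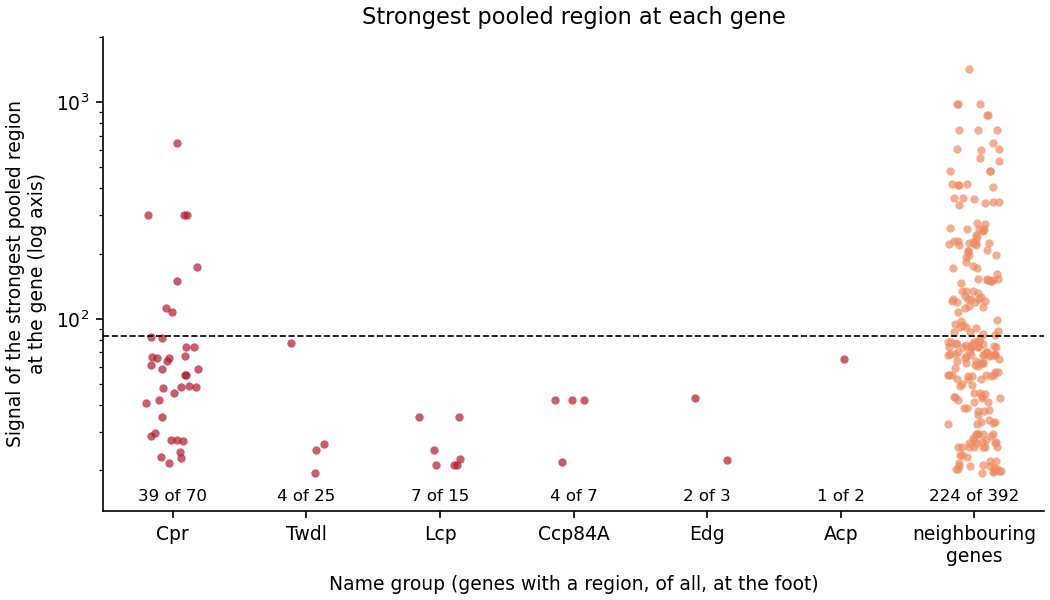
Signal of the strongest pooled region at each gene (log axis), by name group of the cuticle protein genes and for neighbouring genes; each point is a gene, the dashed line is the lowest signal of the IDR list (83.2) and the foot gives how many genes had a region. Only Cpr genes lie above the line among the members, and the Twdl group has 4 of 25 genes with any region.

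The strongest region at a member, with signal 647, lay beyond the end of Cpr31A. It spans chr2L:10057298-10057589, ranks 135 in the pooled list and ranks 97, 160 and 173 in replicates 1, 2 and 3. Its summit is 1507 bp downstream of Cpr31A but inside an intron of Pen, which encodes an importin alpha, and the nearest start, 542 bp away, is that of Pen.

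The Cpr72E cluster held the next 2. A region of signal 302 (pooled rank 877, replicate ranks 1131, 566 and 1114) spans chr3L:16364251-16364528, 537 bp upstream of Cpr72Eb. It lies within 2 kb of Cpr72Ea, Cpr72Eb and Cpr72Ec, so 3 of the 8 members share it. A second region, of signal 273 (pooled rank 1038, replicate ranks 1590, 692 and 1204), spans chr3L:16361371-16361536, 1181 bp upstream of Cpr72Ea and 1994 bp from ringer, a gene of the microtubule-binding TPPP family. All 3 replicates ranked both regions in the first 1590, well inside their strongest 6410, and the nearest start of each is a member's own.

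Introns of members held 4 IDR regions. In Cpr62Ba, a region of signal 173 (chr3L:1829558-1829987, pooled rank 2206, replicate ranks 2651, 3135 and 1955) had its summit 831 bp from the nearest annotated start of that gene. In Cpr51A, a region of signal 149 (chr2R:14513567-14513996, pooled rank 2852, replicate ranks 2787, 3373 and 4159) lay closer to a start of CG30197, a gene nested in Cpr51A, at 248 bp. Cpr73D, the longest member at 18590 bp, held a region of signal 112 (chr3L:16941236-16941665, pooled rank 4375, replicate ranks 5803, 6382 and 3579). Its other region, of signal 93.7 (chr3L:16956308-16956737, pooled rank 5519), lies also in an intron of Ogdh, which encodes 2-oxoglutarate dehydrogenase, 759 bp from a start of Ogdh. Replicates 1 and 3 placed that region at ranks 3307 and 5005 and replicate 2 at 8560. It was the only one of the 8 without support from all 3 replicates, support being an overlap of at least 1 bp with the strongest 6410 regions. In the window of Cpr73D and 2 kb on each side, 40.2% of the 30-base words occur more than once in the genome, and the part of this in its regions was not tested.

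The eighth lay 823 bp upstream of Cpr47Ed, with signal 108 (chr2R:11262414-11262843, pooled rank 4546, replicate ranks 5465, 5758 and 4455). Of the 8 regions, 4 were also in or within 2 kb of a neighbouring gene (Pen, ringer, CG30197 and Ogdh).

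No IDR region lay within 500 bp of a member's start. The 8 comprised 4 in introns, 3 upstream and 1 downstream. Starts and positions were those of each group's own genes. Within 500 bp of a start lay 38.0% of the 137 IDR regions at neighbours and 39.1% of the 5551 at all protein-coding genes. These measures are unlike, since for members the starts of other genes were not counted. The region in Cpr51A, for instance, was 248 bp from a start of CG30197. Among the 102 pooled regions at members, 23 (22.5%) were within 500 bp of a member's start. By their own starts, the shares were 25.5% at neighbours and 26.2% at all genes. Member regions near a non-family start only, such as that 2 bp from a start of Pex2, are not in the 23. A further 35 (34.3%) were downstream, 24 (23.5%) upstream, 15 (14.7%) in introns and 5 (4.9%) in exons. Introns held 55.4% of the pooled regions at neighbours and 58.8% of those at all genes, which are longer.

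Regions at members were weaker and less often shared between replicates. The median signal of the 102 pooled regions was 31.4 (quartiles 23.5 and 56.5), against 41.1 (26.4 and 70.8) for the 702 at neighbours and 38.7 (25.9 and 73.3) for all 29999. Of the 102, 8 (7.84%) passed the IDR threshold, against 19.5% of those at neighbours and 21.4% of all pooled regions. A region in the lists of all 3 replicates overlapped 48.0% of them, against 60.4% at neighbours and 57.2% of all. The weakest IDR region at a member had signal 93.7 and the strongest region below the threshold 82.0, the lowest signal of the IDR list being 83.2. Of the 102 regions, 20 lay at 2 or more members, 44 (43.1%) also lay in or within 2 kb of a non-family gene and 16 of these were inside one.

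The strongest members below the threshold were mostly Cpr genes, which also made up 39 of the 57 members with any pooled region. The 10 members with the strongest regions that did not reach the IDR list were Cpr76Ba (82.0), Cpr97Ea (81.6), TwdlE (77.5), Cpr66Cb (74.1), Cpr97Eb (73.8), Cpr100A (67.4), Cpr49Ae (66.7), Cpr78Cc (66.2), Cpr47Ec (65.7) and Acp65Aa (65.3), with the signal of the pooled region in brackets. For Cpr76Ba, the first of them, the replicate ranks were 5695, 7298 and 9368. The best regions anywhere at Cpr66Cb ranked 5749, 2609 and 25646 in replicates 1, 2 and 3, and those at TwdlE 11373, 6374 and 6016. Cpr47Ec had no region in replicate 1 and ranks of 4424 and 6461 in replicates 2 and 3. Across all members, 8 had a summit among the strongest regions of all 3 replicates, 2 (Cpr66Cb and TwdlE) in 2 replicates, 5 (Cpr47Ec, Cpr76Ba, Cpr78Cc, Cpr97Ea and Cpr97Eb) in 1 replicate and 107 in none. The 8 with 3 replicates are the 8 with an IDR region.

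**Figure D3:**
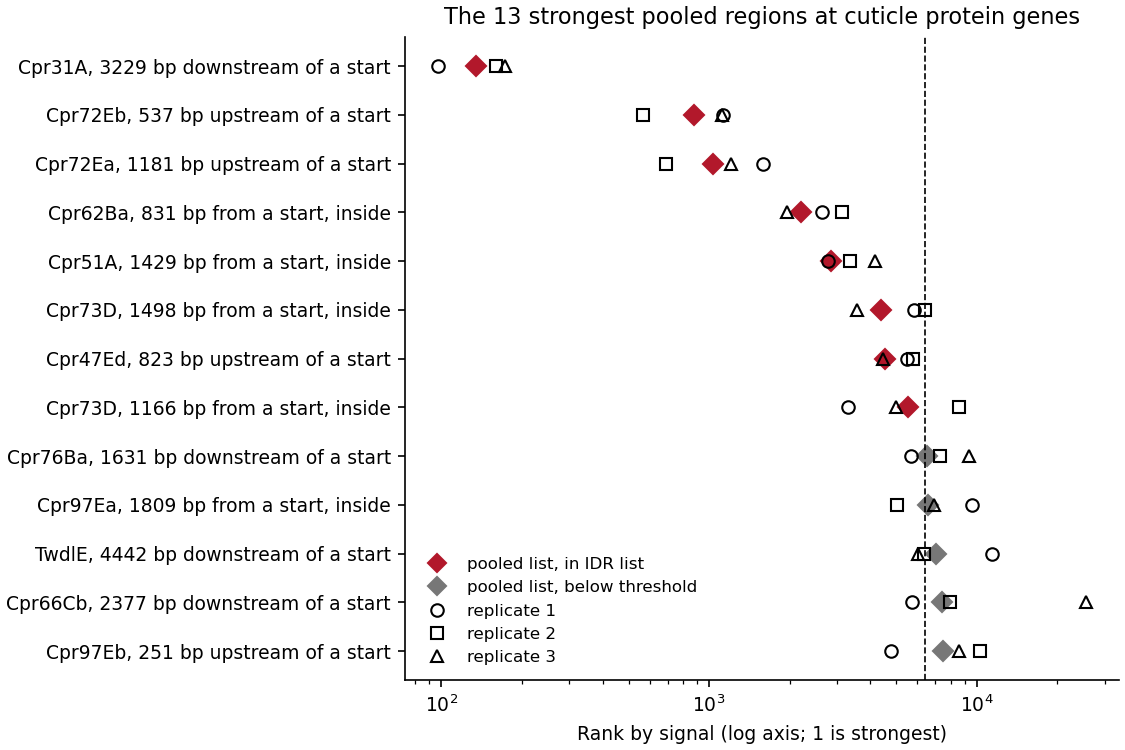
Rank by signal (log axis, 1 is strongest) of the 13 strongest pooled regions at cuticle protein genes, in the pooled list (diamonds) and in replicates 1 to 3 (open symbols); the label gives the member and the distance to its start, and the dashed line marks rank 6410. The regions at Cpr31A and Cpr72E rank in the first 1590 in all 3 replicates, and the region at Cpr66Cb ranks 25646 in replicate 3.

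Of the members named for ecdysone response or adult cuticle, none had an IDR region. Acp65Aa, an adult cuticle gene of the 65A cluster, had 3 pooled regions upstream, the strongest of signal 65.3 at 1118 bp from its start (replicate ranks 11867, 8525 and 7553). Edg91 had 3, the strongest of signal 43.1 and inside an exon of the gene CG14329. Edg84A had a single pooled region of signal 22.4, and among the replicates only replicate 1 had a region there, at rank 13230. Acp1 had no pooled region and a weak one in replicate 2 alone, at rank 25761, in a window where 55.5% of 30-base words occur more than once in the genome. Edg78E had no region in any list, and the nearest pooled summit was 4097 bp away.

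No region at all, in any replicate, lay at 39 of 122 members (32.0%), against 97 of 392 neighbours (24.7%) and 24.2% of all genes. Members are shorter and so have smaller windows, and the part of length in these shares was not tested. The 39 were 19 Cpr, 13 Twdl, 5 Lcp, 1 Ccp84A and 1 Edg gene. A region was in the relaxed list of all 3 replicates at 41 members, of 2 at 18 and of 1 at 24. Close copies of some members could lose reads that match more than 1 place, and how such reads were handled is not given here. In windows of the gene and 2 kb on each side, the share of 30-base words that occur more than once in the genome exceeded 10% at 20 of 122 members, against 25 of 392 neighbours. It reached 66.5% at Cpr65Ax1 and 63.1% at Lcp65Ab1, neither of which had a region in any replicate. The members over 10% were 13 of the 65 with no pooled region, against 7 of the 57 with one. The part of repeated sequence in the missing regions was not tested. The median GC content of these windows was 43.0% for members and 43.8% for neighbours.

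IDR regions were sparse up to 10 kb from the members. In the genes themselves there were 19.4 IDR summits per Mb and in the 2 kb around them 12.9, together 8 summits in 0.516 Mb or 15.5 per Mb. At 2 to 5 kb from the nearest member the density was 29.7 per Mb, at 5 to 10 kb 17.0, at 10 to 20 kb 52.6, at 20 to 50 kb 71.2 and beyond 50 kb 48.0. The first 4 of these classes rest on 4, 4, 9 and 8 summits. Pooled relaxed summits varied less, with 280 per Mb at 20 to 50 kb and 225 per Mb over all arms. In the members themselves there were 121 per Mb, but in the 2 kb around them 249, above the density over all arms. Together these 2 classes had 198 per Mb. The share of pooled summits that passed the threshold was 7.84% in or within 2 kb, against 25.4% at 20 to 50 kb.

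In the strongest regions of the 3 replicates, the density in or within 2 kb of members was 21.3, 25.2 and 17.4 per Mb (21.3 ± 3.88, SD), against 40.8 ± 1.22 at 2 to 20 kb and 73.1 ± 5.63 at 20 to 50 kb (n = 3 replicates, two-sided exact sign-flip permutation p = 0.25 for each difference, the smallest possible). The nearest IDR summit was a median of 16.4 kb from a member (quartiles 7.8 and 39.0), against 8.43 kb from a neighbouring gene (1.98 and 19.4) and 7.33 kb from any protein-coding gene. These distances run from the edges of each gene, so they depend on gene length, and members are shorter. The neighbours do not all lie far from the members, and 13 overlap one.

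**Figure D4:**
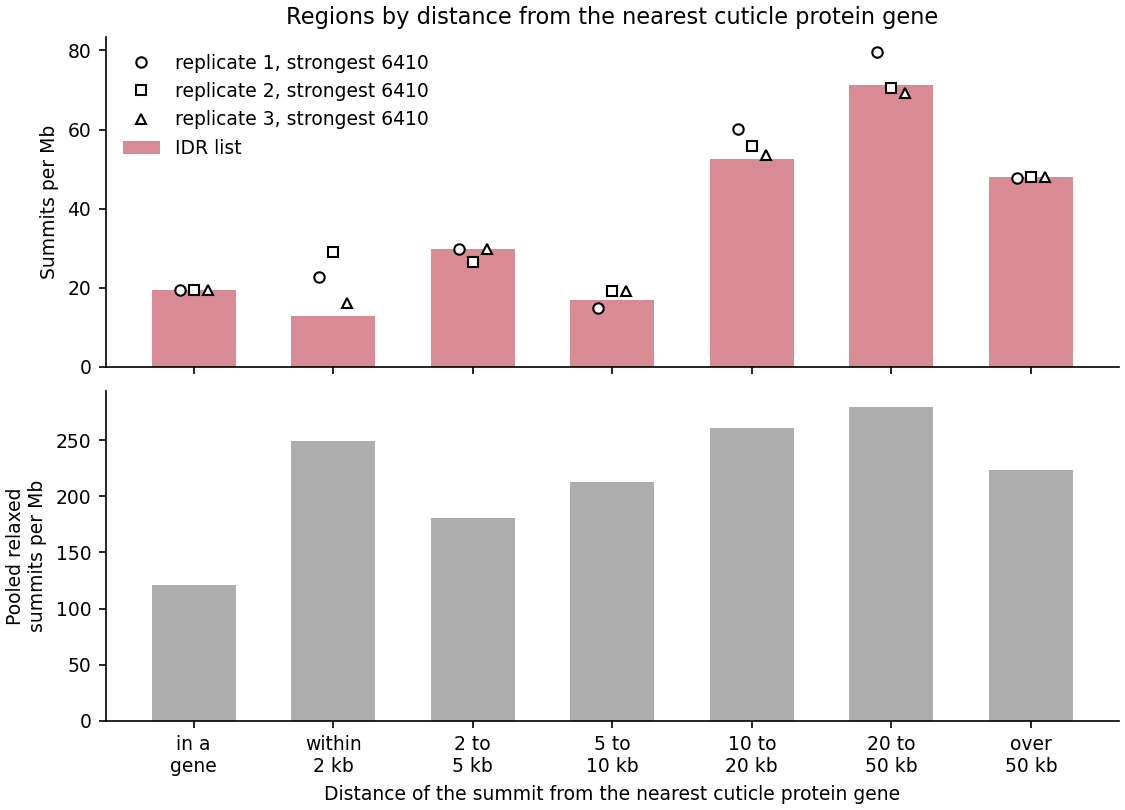
Density of region summits (per Mb of sequence) by distance from the nearest cuticle protein gene, for the IDR list (red bars) and the 6410 strongest regions of each replicate (points) in the upper panel and for the pooled relaxed list in the lower panel. IDR density is 19.4 and 12.9 per Mb in and within 2 kb of the genes and 71.2 per Mb at 20 to 50 kb, a wider contrast than in the relaxed list.

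The members fall into 15 clusters of 3 or more genes with gaps of at most 20 kb, which hold 88 of them, and 34 dispersed genes. By arm, 47 lie on 3L, 33 on 3R, 27 on 2R, 8 on X and 7 on 2L. An IDR region lay at 5 of the 88 clustered members and at 3 of the 34 dispersed ones, and a pooled region at 39 (44.3%) and 18 (52.9%). The spans of the clusters, 243 kb in all, held 4 IDR summits and 39 pooled summits (1.65 and 16.0 per 100 kb), against 16 and 133 (2.67 and 22.2 per 100 kb) in the 600 kb made up of 20 kb on each side. The strongest regions of replicates 1, 2 and 3 gave 1.65, 2.47 and 1.65 per 100 kb of span, against 3.5, 3.67 and 3.17 per 100 kb of flank. The replicates' ranges for spans and flanks did not overlap, though the spans held few summits. In IDR summits and in the replicates' strongest regions, flanks too were sparser than the arms as a whole. In pooled summits they were close to the arms, which had 225 per Mb. All arms together had 48.2 IDR summits per Mb, and 48.1 to 48.2 per Mb among the strongest regions of the replicates.

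Of the clusters, 4 had an IDR summit in their span. The Cpr72E trio of genes lies in 4.74 kb, with the region of signal 302 between its genes and that of 273 on its ringer side, the strongest region at any neighbour of that cluster being the same 273. Cpr62Ba to Cpr62Bc had the intronic region of 173 at Cpr62Ba. An intergenic region of 344, within 2 kb of both CG42676 and GV1, was 15.3 kb from Cpr62Ba. The 7 genes from Cpr47Ea to Cpr47Eg had the region of 108 at Cpr47Ed, against 481 at 10.8 kb from Cpr47Eg, in the F-box gene Fbl6. In the 18 genes from Lcp65Ag3 to Cpr65Az, the largest cluster, the IDR region of signal 197 (chr3L:6155102-6155531) lay 2572 bp from Acp65Aa and 114 bp from a start of lncRNA:CR45421, so at no member, and was within 2 kb of CG13297. The best region at a member of that cluster was the 65.3 of Acp65Aa.

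Of the 5 clusters with no pooled summit in their span, 3 had a strong region within 20 kb. Cpr78Ca to Cpr78Cc, with Edg78E, had no pooled summit in its span, while a region of signal 975 lay 3395 bp from Cpr78Cc. That region counts for CG11309 and CG7632 and for Pc, which encodes the Polycomb protein, and its ranks were 43, 26 and 44 in replicates 1, 2 and 3. Cpr64Aa to Cpr64Ad had no pooled summit in its span, against 610 at 12.0 kb, in ImpL2, which encodes a secreted insulin-binding protein and whose best ranks were 129, 155 and 178. The member of that cluster with any pooled region was Cpr64Aa, at 22.7. The 4 genes from TwdlX to Twdlalpha, which lie within the bounds of goe, had no pooled region, and goe itself had 412 at 6.81 kb from Twdlalpha. TwdlM to TwdlD, 12 genes in 21.9 kb with no other protein-coding gene between them, had no pooled region either, and across the replicates 1 relaxed summit lay in the span, in replicate 2. No IDR summit lay within 20 kb of it. Among its neighbours scrib, a long cell polarity gene, had a region of 277, which is 76.8 kb from TwdlM. Lcp1 to Lcp4 had neither a pooled summit in its span nor an IDR summit within 20 kb.

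The remaining clusters held weak regions. Cpr67Fa1 to Cpr67Fb had 27.5 at Cpr67Fa2 and Cpr67Fb, which share the region, against 2 IDR regions within 20 kb, the stronger of 138. The strongest region of a neighbouring gene there, 537 in tna, a long gene of a SUMO ligase-like protein, is 37.1 kb away. TwdlF to TwdlV had 26.5 at TwdlF, against 205 and 119 within 20 kb. The 220 of aux, the fly auxilin of clathrin uncoating, is 32.8 kb away. Cpr65Ea to Cpr65Ec had 58.8 at Cpr65Ea and Cpr65Eb, which share the region, against 88.2 at 2.9 kb, in form3, a formin. In the other 4 clusters no neighbour within 20 kb had an IDR region. Besides Lcp1 to Lcp4, Cpr49Aa to Cpr49Ah had 66.7 at Cpr49Ae, Cpr76Ba to Cpr76Bd had 82.0 at Cpr76Ba, and Edg84A to Ccp84Aa had 42.2 at Ccp84Ag, a region that also lies within 2 kb of Ccp84Af and Ccp84Ae. The Ccp84A cluster was the most remote, its genes lying 208 to 228 kb from the nearest IDR summit.

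**Figure D5:**
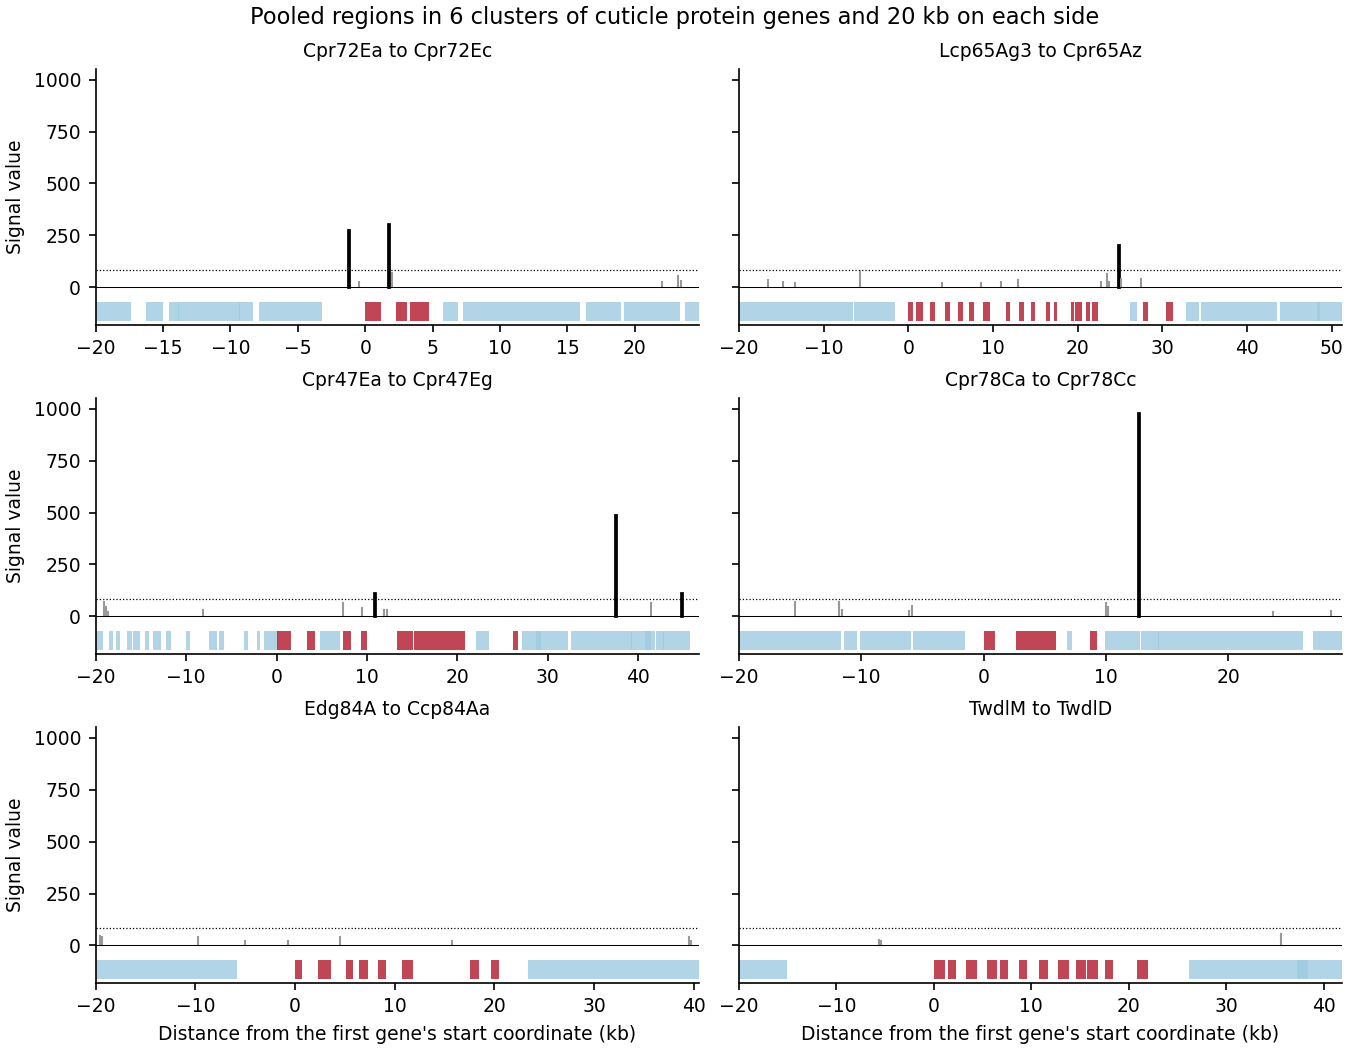
Signal of pooled regions (vertical lines, black for the IDR list and grey below it; dotted line, lowest IDR signal) in 6 clusters of cuticle protein genes and 20 kb on each side, by distance in kb; red boxes are cuticle protein genes and blue boxes other protein-coding genes. The regions of 302 and 273 stand at the Cpr72E genes, the region of 975 stands beside Cpr78Cc, and the TwdlM to TwdlD panel has no line within the cluster.

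Most neighbours with an IDR region had it away from the members. Of the 99, 94 had an IDR region that lay at no member. The strongest was at Hsp27, which encodes a small heat shock protein, with signal 1415 and ranks of 11, 9 and 9 in replicates 1, 2 and 3. The gene lies 19103 bp from Cpr67B, a member with no region in any replicate.

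Genes that act on the cuticle genes or build the chitin matrix were counted in the same way, in lists chosen with earlier results of these data known. Of 15 regulators, 14 (93.3%) had an IDR region, against 29.8% of all genes, and their median length of 41689 bp gives them far larger windows than the members. The strongest signals were 907 at Hr4, 637 at Eip75B, 372 at Eip93F and 371 at grh, which encode 2 nuclear receptors, an ecdysone-induced transcription factor of metamorphosis and the epidermal factor Grainy head. The others were Eip74EF, EcR, Hr3, Hr38, ftz-f1, br, Blimp-1, usp, crc and Hr39, with 110 to 282. Kr-h1, a juvenile hormone response factor, had 46.8 at the relaxed level. Of 16 genes for chitin synthesis, chitin-bound matrix, chitinases and tanning, 8 had an IDR region, with a median length over the 16 of 5699 bp. These were dpy (310), Cht7 (225), Cht2 (156), knk (136), kkv, the epidermal chitin synthase (109), verm (102), Ddc (95.6) and rtv (87.8). The other 8 (Cht5, Gasp, e, obst-A, ple, serp, stw and y) had relaxed regions of 27.6 to 77.2.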

How the data were processed

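Values were taken from dm6 region lists as deposited. A relaxed list was made against a control for each replicate and for their pool, and the IDR list came from these, per the deposited text files. The signal is the value of each region that the authors' peak caller wrote, and its columns for score and p-value were not used. The IDR threshold, aligner and caller were not given in the sources used here. Control libraries, reads and dm3 lists were not analysed here. The IDR list held the 6410 strongest pooled regions. Gene models are Ensembl BDGP6 and sequence is RefSeq of that assembly, 1-based. Windows, overlaps, clusters and the exact permutation test were computed with pandas 2.3.3, numpy 2.4.6 and scipy 1.17.1 under Python 3.11.15 (figures, matplotlib 3.10.9) and tested on simulated data. The replicates come from separate biosamples, and regions and genes were not treated as replicates in the permutation tests. The Clopper-Pearson intervals take each gene as 1 trial, although genes can share a region, and are not a test between groups. No enrichment test was made. The members, lists, motifs and rules were chosen with earlier results of these data known. Named are members with an IDR region, the 10 strongest below it, the strongest member and neighbour of each cluster, the Edg and Acp genes and the 2 lists' genes. Other genes named (CG7632, Pc, Pen, Ogdh, CG30197, CG14329, Hsp27, Cpr67B and the repeated-word examples) were chosen after their values were seen.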

Additional observations from a re-analysis of the deposited data

How the results depend on the processing

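With summits counted up to 500 bp from the gene, 3 members (2.46%) had 4 IDR regions, against 19.6% of neighbours with one, and 29 members had a pooled region. With 5 kb, 22 members (18.0%) had 17 IDR regions, against 35.7% of neighbours. The strongest 3205 regions of the IDR list put 5 at members, with 6 members (4.92%) having one, against 69 neighbours (17.6%). Limited to genes up to 2 kb long, a choice made after seeing the data, 5 members (4.85%) had 4 IDR regions, against 28 neighbours (15.6%). When the neighbours were only the nearest non-family gene on each side of each member, 22 had an IDR region, or 20.6% of that smaller set. Requiring support from both other replicates gave 36 to 40 members with a pooled region in place of 57 (the lowest without replicate 3). It gave 7 to 8 IDR regions at members and 8 members with one each time. Neighbours with an IDR region fell from 99 to 84, 90 and 84 without replicates 1, 2 and 3 (21.4%, 23.0% and 21.4%). Shares of all genes were not computed for the other distances, for the strongest 3205 regions or without a replicate. The difference between members and neighbours stayed negative in every setting run, at -19.4 to -10.5 percentage points. Counting summits near starts, any overlapping base or 1 gene per region kept the other counts within 1.5 times, and so did joining clusters at 10 or 50 kb. No paired analysis was possible because there is 1 group of samples and so no second group to pair with. Members and neighbours were set against each other within each replicate. Depth is unknown, the control and any untagged line were not analysed here, and 73.5% of IDR regions (5 of the 8 at members) share a width of 430 bp. How precisely their summits are placed was not tested.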
